A study of Mus musculus with 9 samples.

Results

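The p53 pathway was examined at the RNA level in color-coded murine leukemia clones. The genes followed were the p53 gene *Trp53*, its negative regulators *Mdm2* and *Mdm4*, and 6 target genes of p53, namely *Cdkn1a*, *Ccng1*, *Phlda3*, *Trp53inp1*, *Zmat3* and *Aen*. They were chosen by gene name, and all 9 were among the 55401 genes of each table, of which 42643 were read at least 1 time across the libraries. RNA-Seq had been performed on splenocytes of irradiated C57Bl6/J mice that had received a mix of 24 color-coded clones of H9M cells, which are murine progenitors transformed with *Hoxa9* and *Meis1*. Each clone carried an FGB-D vector, a lentiviral vector that expresses its color code. Cells of 1 color code at a time had been sorted from the cKit+CD11b dim/neg, CD45.1+, EGFRt-bright gate.

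All 3 groups shared the *Hoxa9* and *Meis1* transformation, the vector type and the sort. The 3 pre-malignant libraries were made from clones 33, 38 and 43, and all came from mouse #15, which was sacrificed early after transplantation. The 3 de novo expanded libraries were made from the same 3 clones after they had expanded in endpoint mice (38BC-D in mouse #13, 43BC-D in mouse #14 and 33BC-D in mouse #17). The 3 stably expanded libraries were made from 1 clone, 34BC-D, in mice #13, #14 and #17. The pre-malignant state and mouse #15 therefore cannot be told apart, and neither can the stably expanded state and clone 34. The labels tie the columns of the tables to groups but not to single mice, so that the library numbers 1 to 3 name neither a clone nor a mouse. Statistical tests over these libraries measure the spread between clones of 1 mouse, between clones of different mice, or between mice with the same clone, respectively.

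The transcription factor p53, encoded by *Trp53*, is held at a low protein level by the ubiquitin ligase Mdm2 and is restrained by the related protein Mdm4. DNA damage, oncogene activity and other stress interrupt this control, mostly by changing the stability and activity of the protein and not the level of its RNA. Active p53 then switches on genes that stop the cell cycle, promote cell death, and repair DNA. *Mdm2* is itself such a target and closes a feedback loop. In acute myeloid leukemia the pathway is known as a barrier to transformation that can be weakened by excess of its inhibitors. The RNA levels of its target genes are often used as a readout of p53 activity, which was not measured directly here.

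The p53 protein binds DNA through pairs of a short degenerate motif, the p53 response element half-site. This motif of 10 bases is its own reverse complement, so that 1 search covers both strands. RefSeq promoter windows (GRCm38.p6, from 250 bases before to 50 bases after a transcription start) were matched by symbol for 7 of the 9 genes, and *Trp53inp1* and *Zmat3* were not among them. An exact match lay in a window of 5 of these 7 genes (*Cdkn1a*, *Mdm2*, *Ccng1*, *Trp53* and *Aen*) and in no window of *Mdm4* or *Phlda3*. In comparison, 8.36% of all 32851 windows, or 9.55% of the 27025 genes with a window, held 1. Of the genes listed further below, 24.1% of 29 other p53 targets with a window held 1. The share was 18.75% for 16 cell cycle genes that p53 represses indirectly. These stretches are shown because they are the feature of sequence that several members share, 5′ to 3′ along the gene's strand and with the matches in capitals:
Cdkn1a: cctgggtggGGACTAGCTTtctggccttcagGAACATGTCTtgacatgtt
Mdm2: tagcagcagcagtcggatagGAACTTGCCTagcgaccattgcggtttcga
Ccng1: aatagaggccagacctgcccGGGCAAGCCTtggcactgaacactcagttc
Trp53: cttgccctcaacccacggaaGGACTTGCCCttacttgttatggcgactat
Aen: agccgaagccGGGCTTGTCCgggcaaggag
The *Cdkn1a* stretch spans chr17:29090897-29090946 on the plus strand. Its matches begin 73 and 51 bases before 1 annotated start, with 12 bases between them. The window of the other annotated *Cdkn1a* start (chr17:29093519-29093818) held no match. The *Mdm2* stretch spans chr10:117710915-117710964 on the minus strand, and its match begins 186 bases before the start. The *Ccng1* stretch spans chr11:40755442-40755491 on the minus strand, with its match 185 bases before the start. The *Trp53* stretch spans chr11:69580264-69580313 on the plus strand, with its match 75 bases before the start. The *Aen* stretch spans chr7:78895927-78895956 on the plus strand, and its match begins 121 bases before 1 annotated start and 10 bases after the other. A match is a description of the letters, and no binding was measured.

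Each library had between 10379739 and 15551196 reads on genes. Levels across all 9 libraries are given as reads per 1000000 reads on genes (CPM), computed from the whole reads behind the deposited normalized counts. A gene without reads may still be present at up to 3 reads, or 0.193 to 0.289 CPM depending on the library, a limit that covers counting error only. Of the defining markers of a myeloid progenitor sort, *Kit* was read at 142 to 287 CPM and *Mpo*, a granule enzyme of myeloid cells, at 1637 to 15796 CPM. In bulk RNA, fewer cells of a type and less RNA per cell cannot be told apart. Of the de novo expanded libraries, library 3 stood apart, with 15796 CPM of *Mpo* against 1637 and 2658 CPM in the other two.

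*Trp53* (chr11:69580359-69591873, plus strand) was steadily transcribed in all clones. Its level was 68.2, 76.95 and 87.9 CPM in the pre-malignant libraries, 88.0, 84.7 and 68.3 CPM in de novo expanded libraries and 82.9, 78.0 and 68.8 CPM in the stably expanded libraries. The 3 groups overlapped, and the highest library was 1.29 times the lowest. Relative to pre-malignant clones, *Trp53* was 1.05-fold in de novo expanded clones (95% confidence interval 0.834 to 1.31) and 0.991-fold in the stably expanded clone (0.825 to 1.19). Between the leukemic groups the ratio of stably to de novo expanded was 0.960 (0.774 to 1.19). All 3 intervals excluded a 2-fold difference in either direction.

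*Mdm2* (chr10:117688875-117710758, minus strand), the ligase that marks p53 for degradation, was lower in every de novo expanded library than in any of the pre-malignant mouse. It was read at 91.4, 80.9 and 77.7 CPM in the pre-malignant libraries and at 63.2, 70.3 and 60.5 CPM in the de novo expanded libraries. The stably expanded libraries lay between them, at 71.5, 70.0 and 81.3 CPM, and overlapped with both groups. Means were 83.3 ± 7.20 CPM in pre-malignant and 64.7 ± 5.08 CPM in de novo expanded libraries (SD, n = 3), and the log2 fold change was -0.35 ± 0.11 (SE). With limma this gave an adjusted p of 0.399, so that *Mdm2* was not called. In the stably expanded clone the difference to pre-malignant clones was -0.16 ± 0.11 on the log2 scale (adjusted p = 0.411).

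*Mdm4* (chr1:132959484-133030561, minus strand), which binds p53 and blocks its transactivation, was counted most often of the 9 genes. It was read at 202, 192 and 185 CPM in pre-malignant libraries, at 145, 187 and 167 CPM in de novo expanded libraries, and at 173, 150 and 203 CPM in stably expanded libraries. De novo expanded library 2 lay within the pre-malignant range, and stably expanded library 3 was the highest of all 9. The log2 fold change to pre-malignant clones was -0.20 ± 0.11 (SE) for de novo expanded and -0.14 ± 0.12 for stably expanded clones, and neither passed the threshold.

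**Figure D1:**
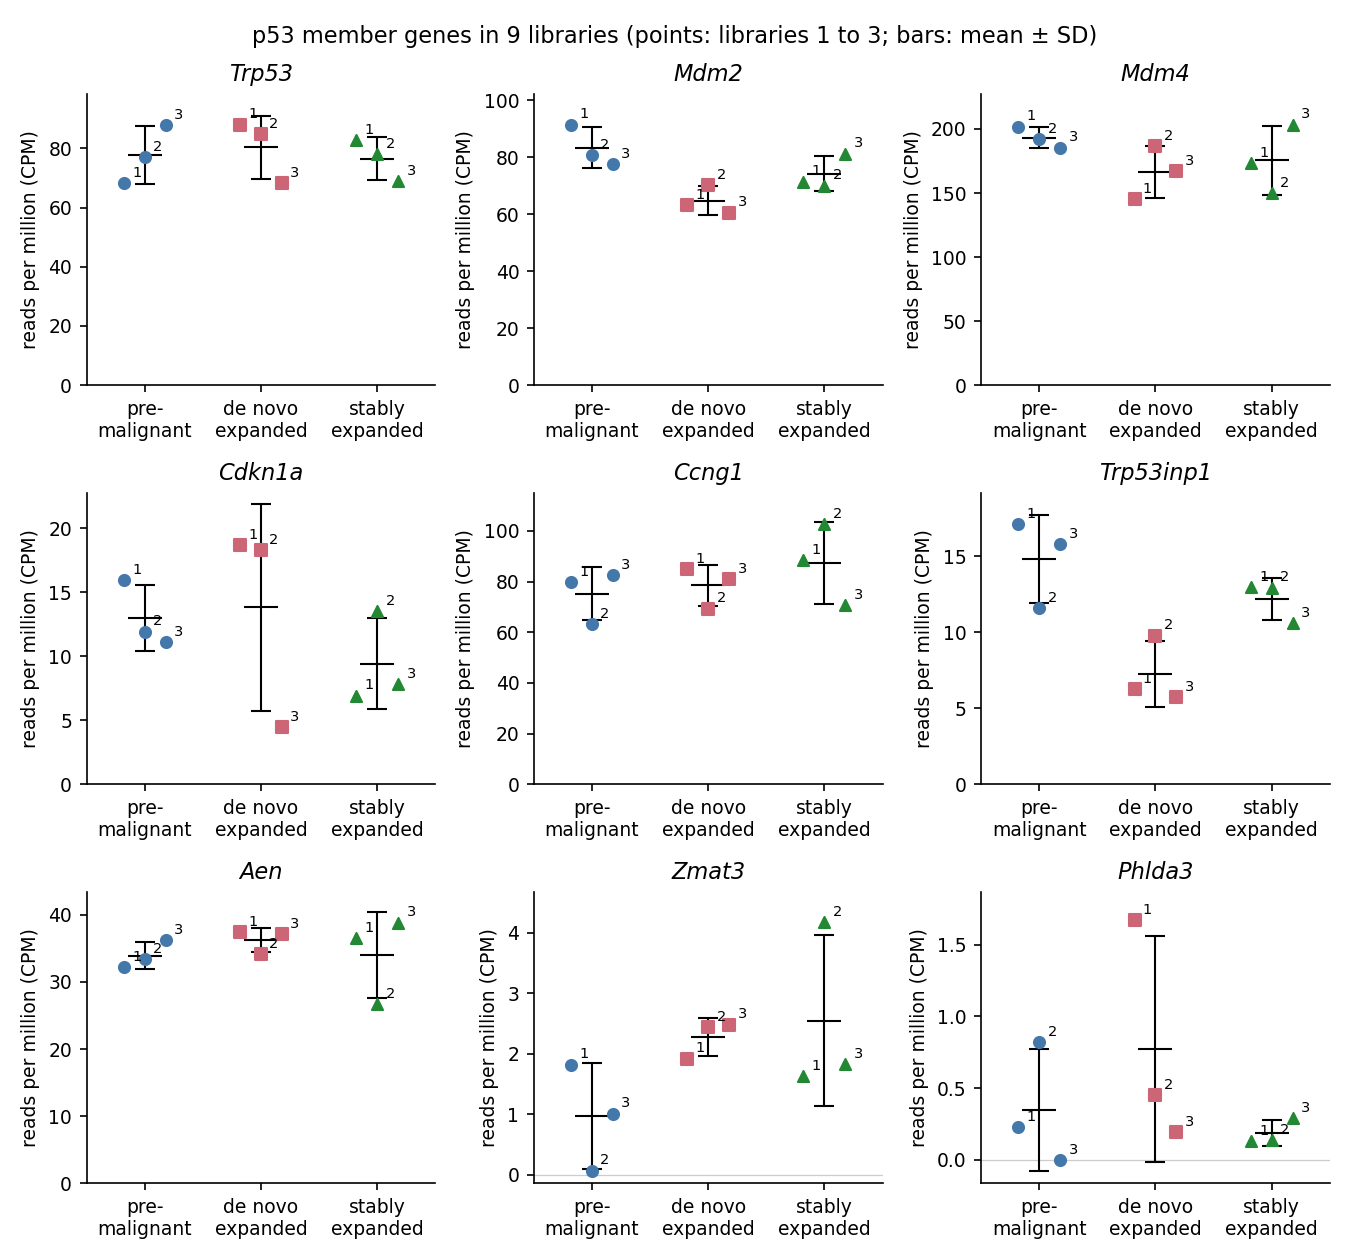
CPM (vertical axis, from 0 for the 7 genes at higher levels) of the 9 genes in the 3 groups, with 1 point per library numbered 1 to 3 and black bars for mean ± SD (n = 3). *Mdm2* and *Trp53inp1* show de novo expanded libraries below all pre-malignant libraries, *Cdkn1a* shows de novo expanded library 3 at 4.44 CPM below the other two, and *Phlda3* and *Zmat3* stay under 5 CPM throughout.

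*Cdkn1a* (chr17:29090976-29100727, plus strand) encodes p21, the inhibitor of cyclin-dependent kinases through which p53 arrests the cell cycle. Its level was 15.9, 11.9 and 11.1 CPM in the pre-malignant libraries, 18.7, 18.3 and 4.44 CPM in de novo expanded libraries and 6.92, 13.5 and 7.80 CPM in the stably expanded libraries. De novo expanded libraries 1 and 2 were thus the highest of all 9, and library 3 of the same group was the lowest. The log2 fold change of de novo expanded over pre-malignant clones was -0.14 ± 0.53 (SE, adjusted p = 0.944). It became 0.53 without de novo expanded library 3 (adjusted p = 0.178), 0.03 without pre-malignant library 1, 0.08 with edgeR and 0.10 with DESeq2, so that these data give no direction for this gene. In the stably expanded clone it was -0.50 ± 0.27 relative to pre-malignant clones (adjusted p = 0.274), with overlapping groups.

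The low *Cdkn1a* library was also the library with the highest summed level of granule genes, mostly from *Mpo* (15796 CPM). The summed level of 11 myeloid granule genes was 20767 CPM in de novo expanded library 3 against 3098 and 4371 CPM in libraries 1 and 2. Pre-malignant libraries had 8226 to 9609 CPM and stably expanded libraries 11928 to 17363 CPM of these genes. Only *Mpo*, *Elane* and *Prtn3* were highest in de novo expanded library 3. The other granule genes of the list were highest in stably expanded library 1, such as *Camp* (805 against 94.0 CPM). The part of these granule gene differences in the *Cdkn1a* level was not tested.

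*Trp53inp1* (chr4:11156431-11174379, plus strand), a target that promotes p53-dependent cell death and autophagy, was the only member read above 5 CPM in every library whose de novo expanded libraries lay below all other 6 libraries. It was read at 17.1, 11.6 and 15.8 CPM in the pre-malignant libraries, at 6.26, 9.77 and 5.75 CPM in de novo expanded libraries and at 13.0, 13.0 and 10.6 CPM in the stably expanded libraries. The stably expanded and pre-malignant libraries overlapped. The fold was 0.490 (95% confidence interval 0.316 to 0.760) for de novo expanded over pre-malignant clones and 1.72 (1.14 to 2.59) for stably over de novo expanded clones. Adjusted over all genes with limma, p was 0.369 and 0.891, respectively, and neither comparison was called.

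*Ccng1* (chr11:40748552-40755311, minus strand), which encodes cyclin G1 and feeds back on Mdm2, was level across the groups. Pre-malignant libraries had 79.9, 63.3 and 82.6 CPM, de novo expanded libraries 85.0, 69.3 and 81.1 CPM and stably expanded libraries 88.4, 103 and 70.6 CPM. All groups overlapped, and the fold to pre-malignant clones was 1.06 (0.835 to 1.34) in de novo and 1.16 (0.923 to 1.45) in stably expanded clones.

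*Aen* (chr7:78895854-78911209, plus strand), a nuclease that acts in p53-dependent apoptosis, was similarly even. It was read at 32.2, 33.4 and 36.2 CPM in the pre-malignant libraries, at 37.4, 34.1 and 37.1 CPM in de novo expanded libraries and at 36.5, 26.7 and 38.8 CPM in the stably expanded libraries. Stably expanded library 2 was the lowest of the 9, and the groups overlapped. The fold to pre-malignant clones was 1.08 (0.889 to 1.31) and 0.993 (0.773 to 1.28).

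*Zmat3* and *Phlda3* were the members with the fewest reads. *Zmat3* (chr3:32334792-32366014, minus strand), an RNA-binding regulator downstream of p53, was covered by 24, 1 and 15 reads in pre-malignant, by 23, 38 and 38 reads in de novo expanded and by 25, 61 and 19 reads in stably expanded libraries. Its log2 fold changes to pre-malignant clones, 1.84 ± 0.92 (SE, adjusted p = 0.493) and 1.85 ± 0.85 (adjusted p = 0.204), rest largely on the single read of pre-malignant library 2. Without that library they were 0.72 and 0.74, and edgeR gave 1.23 and 1.39 with all libraries. *Phlda3* (chr1:135766119-135769136, plus strand), a p53-induced inhibitor of Akt signaling, had 3, 12 and 0 reads, 20, 7 and 3 reads, and 2, 2 and 3 reads in the same order of groups. It was below the filter on low values in all 3 comparisons and was not tested.

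**Figure D2:**
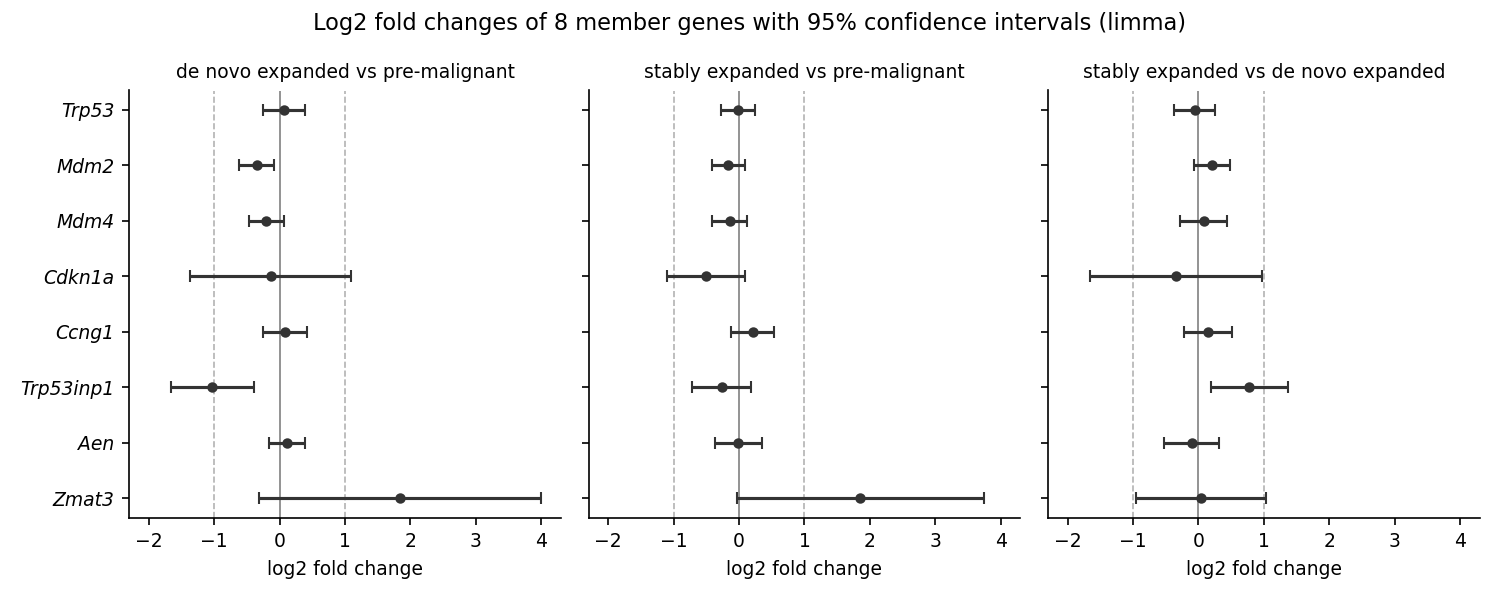
Log2 fold changes (horizontal axis) of the 8 tested genes in the 3 comparisons, with points for the limma estimate and bars for its 95% confidence interval. Solid lines mark no change and dashed lines mark 2-fold differences. The intervals of 5, 6 and 5 of the 8 genes, from left to right, stay within 2-fold, and those of *Cdkn1a* and *Zmat3* are the widest in the left-hand comparison.

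Differential expression analysis called none of the 8 tested members in any comparison, with calls at an adjusted p under 0.05 and at least 2-fold change. Between de novo expanded and pre-malignant clones, limma called 0 of 14195 genes (0%), also without the fold limit (0%), and 1597 genes (11.3%) had an unadjusted p under 0.05. There, edgeR called 0 genes and DESeq2 called 42. Of the members, 2 of 8 (*Mdm2* and *Trp53inp1*) had an unadjusted p under 0.05. Levels did not overlap between the groups for 3 members (*Mdm2*, *Trp53inp1* and, in the other direction, *Zmat3*), beside 19.1% of all tested genes.

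Between the stably expanded clone and pre-malignant clones, limma called 384 of 13968 genes (2.75%), and 7.95% had an adjusted p under 0.05 without a fold limit. No member was among them, and 0 of the 8 had an unadjusted p under 0.05, beside 25.4% of all genes. Groups overlapped for each tested member, whereas they did not overlap for 30.7% of all genes. Between the leukemic groups, limma called 1 of 13758 genes (0.00727%, the same without the fold limit), while 4.83% had an unadjusted p under 0.05 and 9.61% did not overlap. Of the members, *Trp53inp1* was on both of the latter lists. Neither edgeR nor DESeq2 called a member in any of the 3 comparisons, and the median log2 fold change over the 8 members was -0.04, -0.08 and 0.06, beside 0.0079, 0.0042 and -0.0021 over all genes. These comparisons share libraries in pairs.

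To compare levels between genes, CPM were divided by the length of the gene's exons in kilobases as given in the tables (RPKM). Over the 9 libraries, *Ccng1* had the highest level per length (22.9 ± 3.35 RPKM, SD, n = 9), followed by *Trp53* (19.3 ± 2.03), *Mdm2* (14.6 ± 1.91) and *Mdm4* (12.0 ± 1.42). *Aen* (5.98 ± 0.636), *Cdkn1a* (3.39 ± 1.42) and *Trp53inp1* (1.76 ± 0.596) were lower, and *Phlda3* (0.279 ± 0.334) and *Zmat3* (0.169 ± 0.0980) were lowest. In this order, *Mdm4* and *Aen* were the only neighbors whose libraries did not overlap (9.82 to 13.7 against 4.59 to 6.69 RPKM). *Mdm4* thus led by reads but not per length, and the genes for p53 and both inhibitors were present at higher levels per length than the arrest gene *Cdkn1a*.

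Ratios within a library do not depend on the scaling between libraries. *Mdm2* had 0.419 to 0.453 reads per *Mdm4* read in pre-malignant libraries, 0.362 to 0.435 in de novo expanded libraries and 0.40 to 0.467 in stably expanded libraries. Per *Trp53* read, *Mdm2* had 0.884 to 1.34, 0.718 to 0.886 and 0.862 to 1.18 reads, respectively. *Cdkn1a* had 0.126 to 0.234 reads per *Trp53* read in pre-malignant libraries, 0.0650 to 0.216 in de novo expanded libraries and 0.0835 to 0.173 in stably expanded libraries. In all 9 comparisons of these ratios the groups overlapped, and the exact permutation test (two-sided, 3 libraries against 3, smallest possible p of 0.1) gave p between 0.2 and 0.8.

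Upstream of p53, 21 of 23 listed regulators were tested. Between de novo expanded and pre-malignant clones, 0 passed an adjusted p under 0.05, 10 were higher and 11 were lower. In the stably expanded clone against pre-malignant clones, *Hipk2* and *Crebbp* passed without reaching 2-fold, beside 7.95% of all tested genes that passed there. *Hipk2*, a kinase that phosphorylates p53 during apoptosis, was read at 207, 215 and 175 CPM in pre-malignant and at 288, 251 and 302 CPM in stably expanded libraries, a fold of 1.41 (adjusted p = 0.0257). *Crebbp*, an acetyltransferase and coactivator of p53, was read at 338, 343 and 370 CPM against 263, 292 and 263 CPM, a fold of 0.781 (adjusted p = 0.0299). Both lost the adjusted p under 0.05 with 1 fit of all 9 libraries (0.140 and 0.143) and without any single library other than stably expanded 2 (0.0552 to 0.0790 and 0.0516 to 0.0903), and *Crebbp* also with TMM normalization (0.0526). The *Crebbp* paralog *Ep300* had a fold of 0.857 (adjusted p = 0.120) and the damage kinase gene *Atr* a fold of 0.808 (adjusted p = 0.111).

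*Cdkn2a*, which encodes the Mdm2 antagonist p19Arf and, from the same locus, p16Ink4a, was near the filter but separated. It was covered by 16, 16 and 11 reads in pre-malignant, by 7, 26 and 14 reads in de novo expanded and by 32, 59 and 26 reads in stably expanded libraries. The counts do not tell its transcripts apart. In CPM, the stably expanded libraries (2.09 to 4.04) were above all others (0.584 to 1.67), with a fold of 2.66 over pre-malignant clones (adjusted p = 0.0713) and 2.74 over de novo expanded clones (adjusted p = 0.891). It was called over pre-malignant clones with quantile normalization only (adjusted p = 0.040).

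Beyond the 6 member targets, 37 other p53 targets were listed by function. Between de novo expanded and pre-malignant clones, 32 of them were tested, of which 15 were higher, 17 were lower and 0 passed an adjusted p under 0.05. In the stably expanded clone against pre-malignant clones, 17 were higher and 15 lower, 4 passed, and 2 of these were called, beside 7.95% and 2.75% of all tested genes. Between the leukemic groups, 31 were tested and 0 passed. The median log2 fold changes were -0.10, 0.01 and 0.04. Their directions were thus mixed.

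**Figure D3:**
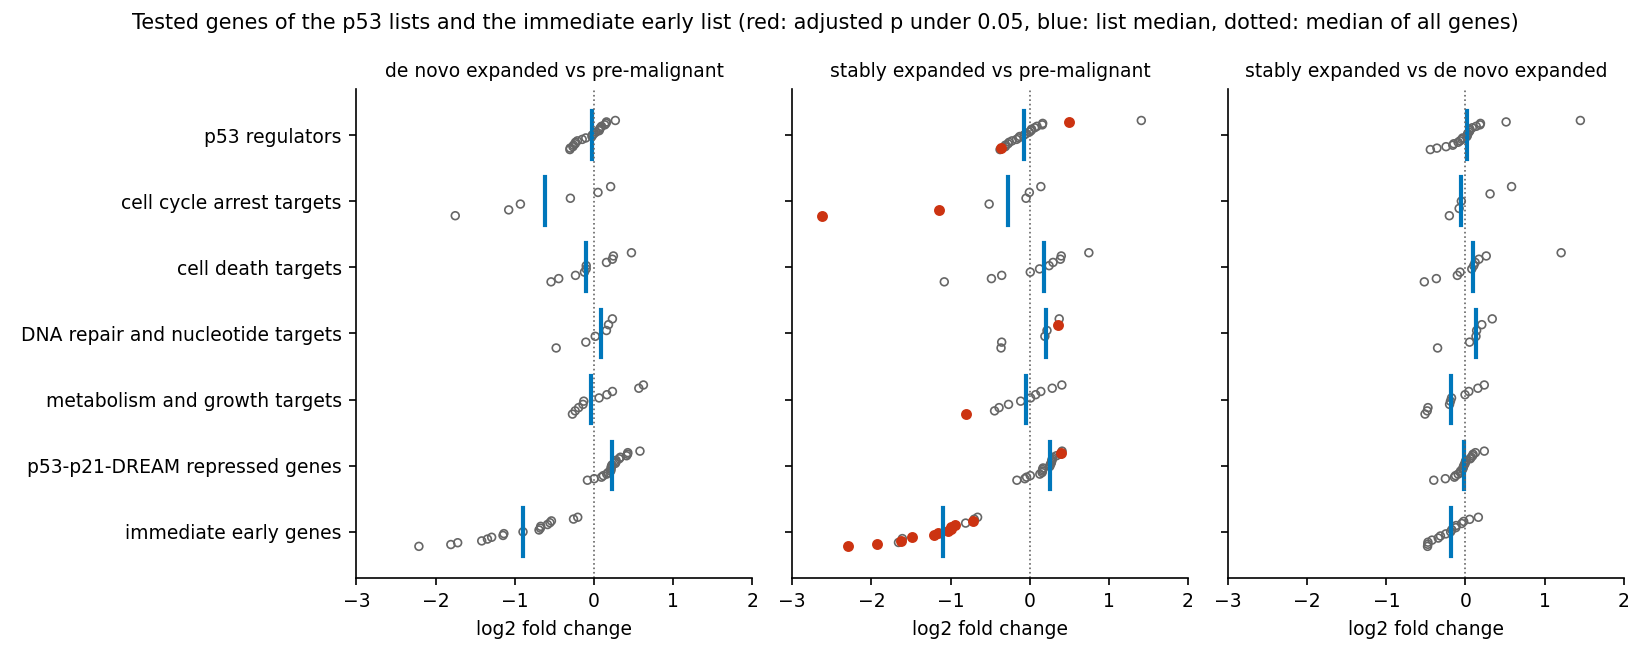
Log2 fold changes (horizontal axis) of the tested genes of 6 p53-related lists and of the immediate early genes in the 3 comparisons. Each circle is a gene, red marks an adjusted p under 0.05, blue bars mark the list median and dotted lines the median of all tested genes. Immediate early genes lie below 0 in both comparisons with pre-malignant clones. There, medians of the cell cycle arrest targets are -0.61 and -0.28, and those of the p53-p21-DREAM repressed genes 0.23 and 0.26. Those of the cell death targets are -0.10 and 0.19, and of the DNA repair and nucleotide targets 0.09 and 0.21. Metabolism and growth targets have medians of -0.03 and -0.05, and p53 regulators of -0.02 and -0.07.

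The 2 called targets belonged to the cell cycle arrest list. *Plk3*, a stress-induced kinase, was read at 10.7, 16.02 and 15.8 CPM in pre-malignant libraries and at 4.63, 9.32 and 5.59 CPM in stably expanded libraries, a fold of 0.451 (adjusted p = 0.0337). *Plk2*, its relative, had 36, 18 and 23 reads against 3, 7 and 1 reads, a fold of 0.162 (adjusted p = 0.0333). Both calls were lost when any of 4 libraries was left out (pre-malignant 2 or 3, stably expanded 1 or 3), with adjusted p between 0.0553 and 0.125, and with 1 fit of all 9 libraries (0.368 for *Plk3* and 0.124 for *Plk2*). In de novo expanded libraries *Plk3* was at 12.5, 15.6 and 1.89 CPM, so that libraries 1 and 2 lay within the pre-malignant range and library 3 was the lowest of all.

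*Btg2*, an antiproliferative transcriptional coregulator on the same list, had 58.9, 41.0 and 51.8 CPM in pre-malignant libraries and 19.6, 21.3 and 30.7 CPM in de novo expanded libraries. The groups did not overlap, and the fold was 0.474 with an adjusted p of 0.330 by limma. It was called by DESeq2 (adjusted p = 0.0156) and by limma without de novo expanded library 3 (adjusted p = 0.00431). The stably expanded libraries, at 32.1, 28.3 and 47.0 CPM, overlapped with the pre-malignant libraries.

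*Plk2*, *Plk3* and *Btg2* are also known to respond quickly to stimulation and handling, as immediate early genes do. All 16 tested immediate early genes were lower in the stably expanded clone than in pre-malignant clones, with a median log2 fold change of -1.10. Of these genes 7 were called, beside 2.75% of all tested genes. All 17 tested were lower in de novo expanded clones, with 0 called and a median of -0.89. Of all tested genes, 50.5% were higher in the stably expanded clone and 51.0% in de novo expanded clones. The summed level of the 18 genes was 3122 to 3468 CPM in pre-malignant, 1616 to 2111 CPM in de novo expanded and 1024 to 2294 CPM in stably expanded libraries. The list was chosen with earlier results of these data known, and both comparisons share the pre-malignant libraries. These counts are therefore a description and no independent check. The part of the immediate early gene difference in the 3 target genes was not tested.

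*Sesn1*, a stress-induced inhibitor of mTORC1 signaling from the metabolism and growth list, gave the smallest adjusted p of the p53 lists. It was read at 34.8, 34.0 and 33.3 CPM in pre-malignant libraries, at 31.0, 32.4 and 21.6 CPM in de novo expanded libraries and at 19.1, 18.7 and 20.6 CPM in stably expanded libraries. The stably expanded libraries were below all others, and the fold was 0.575 relative to pre-malignant clones (adjusted p = 0.00869), short of 2-fold. It passed without each single library and did not with 1 fit of all 9 libraries (adjusted p = 0.0791). Relative to de novo expanded clones it was 0.702 (adjusted p = 0.891, and 0.0350 without de novo expanded library 3). The other 9 tested genes of this list did not pass in any comparison.

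Of the cell death targets, 10 of 12 were tested and 0 passed in any comparison. Relative to pre-malignant clones, 7 were higher and 3 lower in the stably expanded clone, and 4 were higher and 6 lower in de novo expanded clones. *Bbc3*, which encodes the BH3-only protein Puma, was read at 10.3, 11.6 and 9.25 CPM in pre-malignant libraries and at 3.78, 8.22 and 3.66 CPM in stably expanded libraries. These groups did not overlap, and the fold was 0.473 (adjusted p = 0.0597). *Bbc3* passed both limits without stably expanded library 2 (adjusted p = 0.0136) or without the filter on low values (0.0270). In de novo expanded libraries it was at 15.8, 8.75 and 2.48 CPM, again with library 3 as the lowest of all. *Pmaip1*, which encodes the related Noxa, had a fold of 0.716 in the stably expanded clone (adjusted p = 0.181), and the death receptor gene *Fas* had a fold of 2.31 over de novo expanded clones (adjusted p = 0.891). Among the 6 DNA repair and nucleotide targets, *Xpc*, a damage sensor of nucleotide excision repair, passed in the stably expanded clone, with 330, 301 and 348 CPM against 266, 253 and 247 CPM (fold 1.28, adjusted p = 0.0442). It did not pass with quantile normalization (0.0696), with edgeR (0.0501), with 1 fit of all 9 libraries (0.194) or without any single library other than stably expanded 2 (0.0804 to 0.148).

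**Figure D4:**
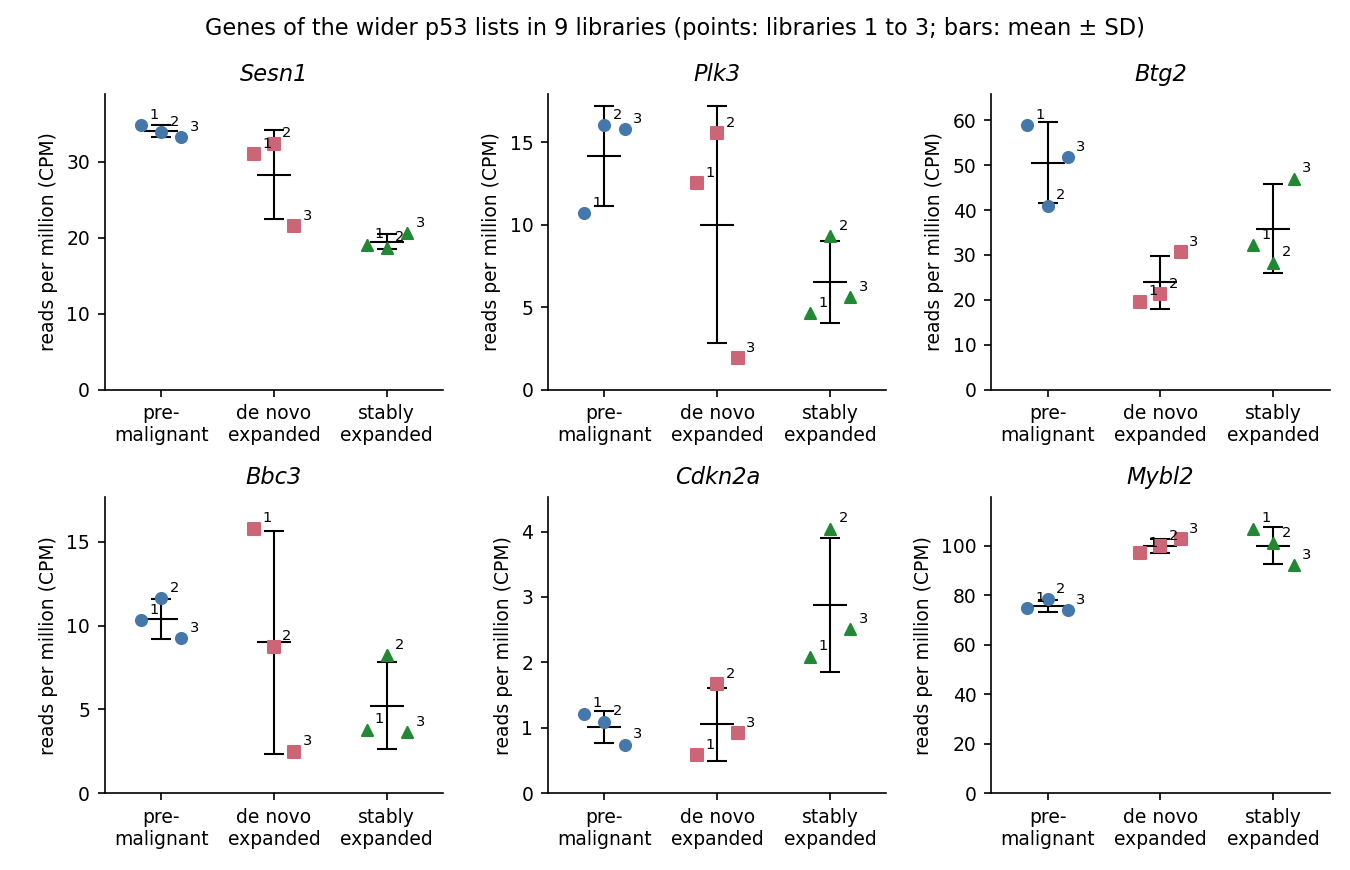
CPM (vertical axis from 0) of *Sesn1*, *Plk3*, *Btg2*, *Bbc3*, *Cdkn2a* and *Mybl2* in the 3 groups, with 1 point per library numbered 1 to 3 and black bars for mean ± SD (n = 3). De novo expanded library 3 is the lowest of all 9 libraries for *Plk3* (1.89 CPM) and *Bbc3* (2.48 CPM), and the stably expanded libraries are the lowest 3 for *Sesn1* and the highest 3 for *Cdkn2a*.

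The opposite arm of the pathway consists of cell cycle genes that p53 represses indirectly through p21 and the DREAM complex. Of 20 such genes, all tested, 19 were higher after de novo expansion and 17 were higher in the stably expanded clone, each relative to pre-malignant clones, beside which 51.0% and 50.5% of all tested genes were higher. The median log2 fold changes were 0.23 and 0.26. Leaving out single libraries gave 16 to 20 genes higher after de novo expansion, with the lowest count without pre-malignant library 1. By limma, 3 and 4 of the 20 had an unadjusted p under 0.05, beside 11.3% and 25.4% of all tested genes. *Mybl2*, a cell cycle transcription factor, had 74.8, 78.5 and 74.0 CPM in pre-malignant libraries, 97.0, 99.9 and 103 CPM in de novo expanded libraries and 107, 101 and 92.1 CPM in stably expanded libraries. All 6 leukemic libraries were above the pre-malignant libraries, with folds of 1.33 (adjusted p = 0.347) and 1.32 (adjusted p = 0.0334). *Mybl2* was the only gene of the list to pass, in the stably expanded clone, beside 7.95% of all tested genes there. It did not pass without the filter on low values (0.0681), with 1 fit of all 9 libraries (0.0836) or without any single library other than stably expanded 3 (0.0647 to 0.110). *Cdca8*, a subunit of the chromosomal passenger complex, had folds of 1.25 (adjusted p = 0.428) and 1.31 (adjusted p = 0.0723). The pre-malignant libraries are shared by both comparisons, so that these counts are not independent. De novo expanded library 1, with the most *Cdkn1a* (18.7 CPM), had the highest *Ccna2* (158 CPM) and *Top2a* (878 CPM) of all 9 libraries. Library 3 of that group, with the least *Cdkn1a* (4.44 CPM), had 89.9 and 571 CPM. *Mybl2* and *Mad2l1* were instead higher in library 3 than in library 1. Any part of p53 or p21 in the levels of these cell cycle genes was not tested. Between the leukemic groups 7 of the 20 were higher, and this count ranged from 3 to 17 when single libraries were left out: 14 and 16 without de novo expanded library 1 or 2, and 3 and 17 without stably expanded library 1 or 3.

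Other cells in the sort also differed in part. B cell markers summed to 218 to 260 CPM in pre-malignant, 75.6 to 207 CPM in de novo expanded and 86.2 to 104 CPM in stably expanded libraries, mostly from *Ighm*. Of the 8 markers, 7 were lower in the stably expanded clone than in pre-malignant clones and 5 were called, beside 2.75% of all genes, whereas *Cd79b* was higher (log2 fold change 0.99, adjusted p = 0.0796). T cell markers summed to 0.522 to 2.94 CPM and platelet markers to 1.502 to 3.77 CPM over the 9 libraries. Erythroid markers summed to 18.9 to 35.2 CPM in pre-malignant, 2.29 to 14.9 CPM in de novo expanded and 2.31 to 24.3 CPM in stably expanded libraries. Macrophage markers, at 164 to 322 CPM, overlapped between the groups. Olfactory and vomeronasal receptor genes were summed as a measure of RNA quality and background, not of a cell type. They reached 83.3 to 186 CPM in pre-malignant and 21.9 to 121 CPM in the other libraries, which overlapped. The part of these differences in the values of the p53 genes was not tested.

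To describe which genes moved like the members, the log2(CPM + 1) profiles of 9769 genes with a mean of at least 5 CPM were correlated with those of *Trp53*, *Mdm2* and *Cdkn1a* over the 9 libraries, which share mice, clones and, in part, depth. The 5 genes most like *Cdkn1a* were *Slc44a2*, *Fam49a*, *Slc2a6*, *Emilin2* and *Hopx* (Pearson's r from 0.966 to 0.979), and none of them was on the p53 lists. *Emilin2* ranged from 14.1 to 132 CPM, wider than *Cdkn1a* itself. The 5 most like *Mdm2* were *Mknk1*, *Gm13241*, *Mcts2*, *Zfp607a* and *Baz2a* (0.895 to 0.969), and the 5 most like *Trp53* were *Drg2*, *Racgap1*, *Mcmbp*, *Ltbr* and *Ppp1r3e* (0.938 to 0.968). These values are given as a description.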

How the data were processed

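RNA-Seq libraries were made by the authors from sorted splenocytes with the SMARTer Stranded Total RNA-Seq Pico kit (3 libraries in each of 3 groups). Per the submitters' processing notes, reads were processed with Trim Galore 0.6.4, STAR 2.6.1d, featureCounts 1.6.4 and DESeq2 on GRCm38.p6. The deposited signal is a normalized count, for which the authors had scaled each gene's reads by the DESeq2 size factor of the library, calculated per table of 6 libraries. The tables also hold the authors' own base means, fold changes, standard errors, Wald statistics and p-values, which were not used. Whole reads were recovered for 100% of values (within 0.05 reads or, for high counts, 1 part in 1000000). Of the rows, 987 had a gene ID and no symbol. The strand setting of the counting is not given in the sources used here. *Mdm4* and *Cdkn1a* each overlap an unnamed gene on the opposite strand (at most 2.96 and 1.45 CPM).

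Tests were run within a table, since tables were normalized separately. The main test was limma 3.58.1 (R 4.3.3) on log2(normalized count + 1) with a mean-variance trend, two-sided, restricted to genes whose normalized counts averaged 10 or more, with Benjamini-Hochberg adjustment over all genes tested. It was tested on simulated data. Fold changes are differences between group means on this scale, on which the added 1 draws low values together and 1 low library can weigh heavily. Ratios were compared by an exact permutation test in scipy 1.17.1. Alternatives were pseudocounts of 0.1 and 5, no filter or an average of 50 or more, TMM or quantile normalization, edgeR 4.0.16, DESeq2 1.42.0, 1 fit of all 9 libraries, no fold limit and leaving out each library. Those for the ratios, list counts and named list genes were added after seeing the data. All members were named; from the lists, genes with an adjusted p under 0.05 and up to 4 per list and comparison with the smallest unadjusted p under 0.05 were eligible, and from marker lists the highest marker. The cell death target *Rps27l* was eligible but is not described above, since its reads may be shared with near-identical genes, which was not tested. By limma, its fold over pre-malignant clones was 1.39 in de novo expanded clones (adjusted p = 0.384) and 1.31 in the stably expanded clone (adjusted p = 0.129). The members and lists were chosen with earlier results of these data known. Python 3.11.15, numpy 2.4.6, pandas 2.3.3 and matplotlib 3.10.9 served for tables and plots. A gene of the study's cell design is not reported here.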

Additional observations from a re-analysis of the deposited data

How the results depend on the processing

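No member was called under any of the alternatives. Between de novo expanded and pre-malignant clones, 0 genes were called as reported, 5 without a filter, 42 with DESeq2 and 5 with 1 fit of all 9 libraries. Leaving out single libraries gave 0 to 214, the latter without de novo expanded library 3. Between the stably expanded clone and pre-malignant clones, 384 genes became 6 with 1 fit of all 9 libraries and 1110 with no fold limit, and leave-one-out counts ranged from 206 to 452. Between the leukemic groups, 1 gene became 2 without a filter, 29 with DESeq2 and 2 with 1 fit, and leave-one-out counts ranged from 0 to 508, again the highest without de novo expanded library 3. The causes were not tested.

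Fold changes of the members near 0 turned their sign under some alternatives. For *Cdkn1a* in de novo expanded over pre-malignant clones, the log2 fold change was 0.083 with edgeR and 0.096 with DESeq2, and it ranged from -0.48 to 0.53 when single libraries were left out. In the same comparison, leaving out single libraries gave -0.020 to 0.17 for *Trp53* and -0.045 to 0.17 for *Ccng1*. For the stably expanded clone over pre-malignant clones, *Trp53* was 0.019 with TMM (left-out range -0.095 to 0.077), and *Aen* was 0.023 with TMM, 0.0014 with edgeR and 0.0084 with DESeq2 (left-out range -0.12 to 0.17). Between the leukemic groups the left-out ranges were -0.16 to 0.0074 for *Trp53*, -0.041 to 0.20 for *Mdm4*, -0.36 to 0.28 for *Zmat3* and -0.22 to 0.080 for *Aen*. Among the log2 ratios, *Mdm2* to *Mdm4* ranged from -0.084 to 0.027 and *Mdm2* to *Trp53* from -0.29 to 0.011 in stably expanded over pre-malignant clones. *Cdkn1a* to *Trp53* ranged from -0.50 to 0.37 in de novo expanded over pre-malignant clones and from -0.86 to 0.0045 between the leukemic groups. *Mdm2* and *Trp53inp1* kept their directions in each comparison under the alternatives run. *Zmat3*, with a mean normalized count under 50, could not be tested at that limit, and *Phlda3* was tested only without the filter and with DESeq2, which did not call it. No paired analysis was possible because no label ties a column to 1 clone or mouse.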
